A study of Mus musculus with 2 samples.

Results

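The receptors described here are 10 genes of the Klr and Ncr families, Ncr1, Klrb1c, Klre1, Klra1, Klra2, Klra7, Klra8, Klrk1, Klrd1 and Klrc1. They were chosen by symbol and are 10 of the 27 Klr and Ncr genes and of the 27998 genes in the count tables. The data were single-cell RNA sequencing libraries of CD45+ immune cells, sorted from subcutaneous tumours of C57BL/6 mice. The tumours grew from 50000 injected MC38-GFP+ cells, a line of mouse colon adenocarcinoma marked with green fluorescent protein. All mice received anti-PD-1 antibody, which blocks an inhibitory receptor of T cells, at a sub-optimal dose of 100 ug on days 12, 15, 18 and 22. The responder group held 1 library of tumours labelled as responding to the antibody, and the non-responder group held 1 library of tumours labelled as not responding. The age of the mice and the number of mice behind each library are not given in the sources used here, and no untreated group was analysed here. With 1 library per group no difference between the groups could be tested, and the intervals below cover counting error only.

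Natural killer (NK) cells are lymphocytes that kill target cells without a rearranged antigen receptor, by weighing signals from activating and inhibitory surface receptors. In the mouse most of these receptors are C-type lectin-like proteins encoded together in the NK gene complex. They include the Ly49 family (Klra genes), whose members bind class I major histocompatibility complex (MHC) proteins or their mimics, the CD94/NKG2 pairs (Klrd1 with Klrc genes), NKG2D (Klrk1) and the Nkrp1 family (Klrb1 genes). Ncr1 encodes NKp46, an activating receptor of the immunoglobulin family. Several of the lectin-like receptors are also made by CD8 T cells, and Ly49B (Klra2) is known from myeloid cells.

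On the GRCm38 build, 9 of the 10 genes lay on chromosome 6 within 2.47 Mb, between positions 128778485 and 131247362, and Ncr1 lay on chromosome 7 from 4337724 to 4345164 on the plus strand. Of the 10 genes, 9 had a RefSeq promoter entry on GRCm38.p6, and Klrd1 had none. The 250 bases before the start of 4 of them are shown because the results below turn on these 4 genes. Ncr1 and Klra8 were found mainly in NK cell-like cells, Klra2 in macrophage-like cells, and Klrk1 in all the classes compared. Capitals mark matches on either strand to GAGGAA, the core of the PU.1 motif of myeloid cells, to TGTGGT, a Runx motif of lymphocytes, or to TTCNNNGAA, a STAT motif. The windows were chr7:4337465-4337714 (plus strand) for Ncr1, chr6:130129899-130130148 (minus strand) for Klra8, chr6:129623865-129624114 (minus strand) for Klrk1 and chr6:131247363-131247612 (minus strand) for Klra2.
Ncr1: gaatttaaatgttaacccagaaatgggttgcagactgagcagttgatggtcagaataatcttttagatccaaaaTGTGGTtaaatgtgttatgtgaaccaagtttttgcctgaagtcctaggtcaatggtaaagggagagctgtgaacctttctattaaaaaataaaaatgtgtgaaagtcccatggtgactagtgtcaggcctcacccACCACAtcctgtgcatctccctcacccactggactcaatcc
Klra8: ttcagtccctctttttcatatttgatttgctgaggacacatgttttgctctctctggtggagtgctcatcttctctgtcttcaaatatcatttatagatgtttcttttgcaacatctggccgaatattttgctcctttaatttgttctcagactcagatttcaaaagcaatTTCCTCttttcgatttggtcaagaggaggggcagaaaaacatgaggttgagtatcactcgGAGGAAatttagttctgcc
Klrk1: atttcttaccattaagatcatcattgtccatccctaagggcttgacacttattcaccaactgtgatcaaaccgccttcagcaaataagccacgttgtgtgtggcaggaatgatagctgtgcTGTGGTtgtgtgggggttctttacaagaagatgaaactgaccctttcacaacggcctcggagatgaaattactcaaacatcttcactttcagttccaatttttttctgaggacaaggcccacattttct
Klra2: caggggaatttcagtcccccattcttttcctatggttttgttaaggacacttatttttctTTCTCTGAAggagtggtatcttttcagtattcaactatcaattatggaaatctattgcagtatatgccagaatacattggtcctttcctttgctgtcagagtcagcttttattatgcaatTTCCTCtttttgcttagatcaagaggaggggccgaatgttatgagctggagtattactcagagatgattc
The Runx letters began 176 and 41 bases before the start of Ncr1 and 129 bases before that of Klrk1. The PU.1 letters began 70 bases before the start of Klra2, and 79 and 19 bases before that of Klra8. The STAT letters stood 190 bases before the start of Klra2. Over the 9 promoters, the Runx letters were in 6, against 14.2% of 27025 promoters of the same length, and the PU.1 letters were in 3, against 23.1%. The STAT letters were in 2 of the 9, against 7.18%. Neither the interferon response element nor TCACACC, a T-box motif, was in any of the 9, against 3.04% and 3.31% of all promoters. The windows of Klra2 and Klra8 were identical at 72.4% of their bases in a global alignment. The other pairs among Klra1, Klra2, Klra7, Klra8, Klrk1 and Ncr1 were identical at between 48% and 54.8%. The myeloid gene Klra2 and the NK gene Klra8 thus had the most alike promoter windows of these 6 genes.

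The responder library held 4425 barcodes and 45866561 unique molecular identifiers (UMIs, 1 for each captured RNA molecule), and the non-responder library 2580 barcodes and 32032569 UMIs. After filtering, 4376 responder cells with a median of 10043 UMIs and 2565 non-responder cells with a median of 11752 UMIs were kept. The libraries shared 14 barcodes. Cells were clustered with every Klr and Ncr gene left out, and named from 15 NK markers that contain none of them. The NK cell-like class was a single cluster, L6, of 3 responder cells (0.0686% of the library, 95% interval 0.0141% to 0.200%) and 20 non-responder cells (0.780%, 0.477% to 1.20%). Of the 15 NK markers, 8 were detected in the responder cells of this class and 13 in the non-responder cells. No UMI of Cd3d, Cd3e or Cd3g, which encode the CD3 chains of the T cell receptor complex, lay in the responder cells, and 1 UMI lay in the non-responder cells. RNA of macrophages was present in the same cells, with UMIs of 10 of 16 macrophage markers (3408 CPM summed) in the responder and 14 of 16 (1614 CPM) in the non-responder NK cell-like cells, against 49978 and 49913 CPM in macrophage-like cells. The T cell-like class held 81 responder and 41 non-responder cells, the macrophage-like class 4062 and 2144 cells, and the dendritic-like class 11 and 76 cells. Mixed clusters with T cell and macrophage RNA (103 and 30 cells) and unnamed clusters (116 and 254 cells) were kept apart. Everything said below of NK cells in the responder library rests on 3 cells.

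Levels are counts of a gene per 1000000 UMIs (CPM), with the UMIs summed over the cells of a class in a library. A class led a gene where its counting interval lay above that of the NK cell-like, T cell-like, dendritic-like and macrophage-like classes other than itself. In the responder library the NK cell-like class led 3 of the 10 receptor genes (Ncr1, Klrb1c and Klra8), beside 0.463% of all genes tested. Each of these 3 had under 20 UMIs over the 4 classes in that library, which is below the minimum that all genes had to reach to be tested. The NK cell-like class led 0 of the 5 receptor genes that reached this minimum in the responder library. In the non-responder library the NK cell-like class led 8 of the 10, beside 1.08% of all genes tested. The 8 were Ncr1, Klrb1c, Klra1, Klra7, Klra8, Klre1, Klrd1 and Klrk1. The unnamed cluster L4, outside the compared classes, had higher levels of Klra1 and Klra7 in that library, as given below. Its interval lay above that of the NK cell-like class for Klra1 and overlapped it for Klra7. At clustering resolution 0.5 the count in that library was 6 of the 10. The macrophage-like class led Klra2 in the non-responder library, beside 4.73% of all genes. The T cell-like class led Klrd1 and Klrc1 in the responder library, beside 0.499% of all genes. It led no receptor gene in the non-responder library, beside 1.5% of all genes. The macrophage-like class led none in the responder library, beside 0.882% of all genes. The dendritic-like class led none in either library, beside 0.374% of all genes in the responder library and 1.71% in the non-responder library.

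**Figure D1:**
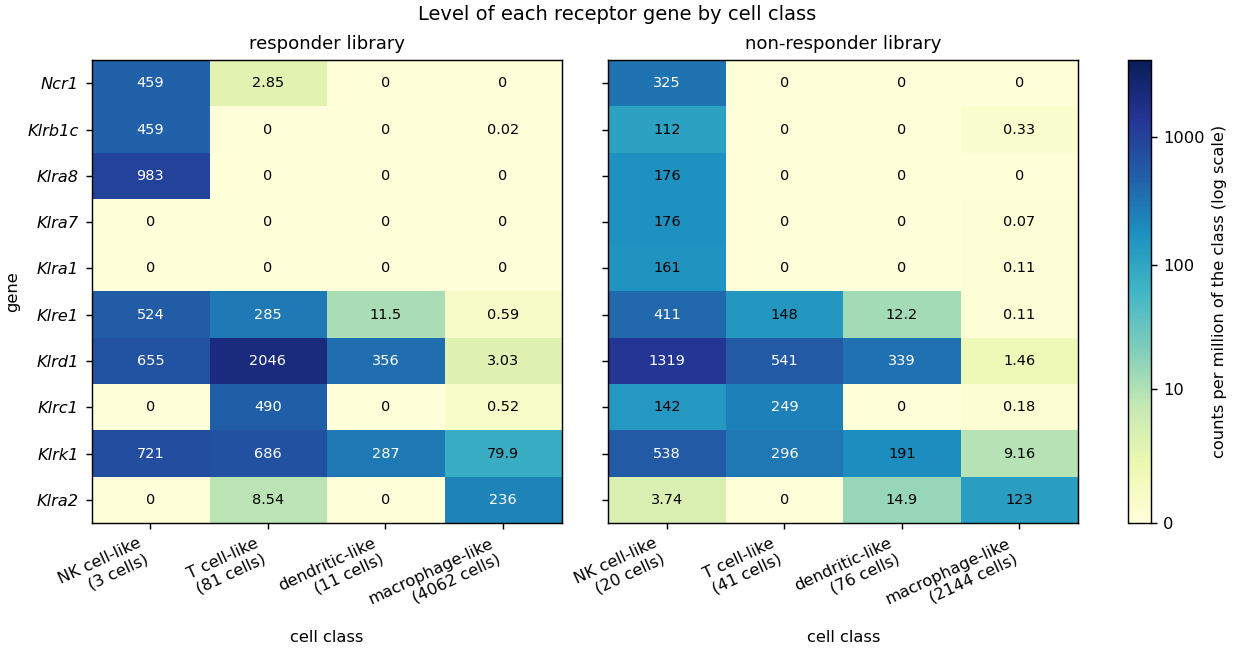
Level of each receptor gene (rows) in CPM in 4 cell classes (columns), with the responder library on the left and the non-responder library on the right. Colour follows a log scale and the printed numbers are the levels. Ncr1, Klrb1c and Klra8 are high in the NK cell-like column of both libraries, Klrd1, Klrc1, Klre1 and Klrk1 also in the T cell-like column, and Klra2 in the macrophage-like column.

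Ncr1 encodes NKp46, an activating receptor that in the mouse is used to define NK cells. In NK cell-like cells it reached 459 CPM (184 to 945, 7 UMIs) in the responder library and 325 CPM (260 to 401, 87 UMIs) in the non-responder library. An Ncr1 UMI was seen in all 3 responder cells, and in 17 of 20 non-responder ones. In macrophage-like cells no Ncr1 UMI was seen among 42566975 responder or 27388131 non-responder UMIs. The count of 0 there allows up to 0.0705 CPM in the responder library and 0.110 CPM in the non-responder library, and up to 0.0739% and 0.140% of the cells with a UMI. The median depth was 4420 UMIs in the responder NK cell-like cells and 10125 in the responder macrophage-like cells, and 13694.5 and 12207.5 UMIs in the non-responder ones. T cell-like cells held 1 Ncr1 UMI in the responder library and none in the non-responder library. Without use of the clusters, 5 responder cells held an Ncr1 UMI and none of them held a CD3 UMI. In the non-responder library 19 cells held one, and 18 of them held no CD3 UMI. The level in NK cell-like cells differed between the libraries by a log2 ratio, responder over non-responder, of 0.50 (-0.86 to 1.60), an interval that includes 0.

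Klrb1c encodes NK1.1, the Nkrp1 receptor by which NK cells of C57BL/6 mice are commonly stained. It reached 459 CPM (184 to 945, 7 UMIs in all 3 cells) in responder and 112 CPM (75.6 to 160, 30 UMIs in 14 of 20 cells) in non-responder NK cell-like cells. The log2 ratio was 2.03 (0.60 to 3.25). T cell-like and dendritic-like cells held no Klrb1c UMI in either library. Macrophage-like cells held 1 UMI in the responder library (0.0235 CPM) and 9 in the non-responder library (0.329 CPM). In the non-responder library 11 further UMIs lay in mixed clusters, so the NK cell-like class held 70.0% of the Klrb1c UMIs of the responder library and 52.6% of those of the non-responder library. For Ncr1 that share was 63.6% (7 of 11 UMIs) and 96.7% (87 of 90 UMIs).

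Klra8 encodes Ly49H, an activating Ly49 receptor that signals through the adaptor DAP12. All 15 Klra8 UMIs of the responder library and all 47 of the non-responder library lay in NK cell-like cells. They came from 2 of the 3 responder cells, which held 2 and 13 UMIs, and from 6 of the 20 non-responder cells, in which the count went up to 15. The level was 983 CPM (550 to 1621) in the responder and 176 CPM (129 to 234) in the non-responder NK cell-like cells. Its distribution among the NK cell-like cells was uneven, with no UMI in the remaining 14 non-responder cells, while Ncr1 was seen in nearly all of them.

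Klra7 and Klra1 encode Ly49G and Ly49A, inhibitory receptors for class I MHC. No UMI of either gene was seen in the responder NK cell-like cells, whose count of 0 allows up to 197 CPM. In the non-responder NK cell-like cells Klra7 reached 176 CPM (129 to 234, 47 UMIs in 9 cells) and Klra1 161 CPM (116 to 216, 43 UMIs in 4 cells). The upper limit in the responder cells lies above both values, so a difference was not detectable at this depth. Nearly all other UMIs of these genes lay in cluster L4, an unnamed lymphoid cluster led by Gzma, Cd7 and Tcf7. That cluster held CD3 UMIs in 6 of 7 responder cells, against 19 of 20 non-responder cells. There Klra7 reached 404 CPM (9 UMIs in 2 cells) in the responder library and 298 CPM (204 to 420, 32 UMIs in 5 cells) in the non-responder library. Klra1 had 1 UMI there in the responder library and 316 CPM (219 to 442, 34 UMIs in 4 cells) in the non-responder library. Klra8 had no UMI in cluster L4 in either library. Thus Klra7 and Klra1 were found both in cells without CD3 RNA and in a small cluster with CD3 RNA, and Klra8 in the NK cell-like cluster only. Within cluster L4, every cell with a Klra1 UMI also held CD3 UMIs, as did most cells with Klra7. In each library 1 cell there held 2 Klra7 UMIs and no CD3 UMI. Both of these cells held UMIs of Ncr1 and Klrb1c. Whether cluster L4 holds more than 1 cell type was not tested.

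The single NK cell-like cells carried different sets of Ly49 genes. Counting the 10 Klra genes of the files other than Klra2, 1 responder cell held UMIs of 1 gene, 1 of 2 genes, and 1 of 4 genes. Of the 20 non-responder cells, 1 held none, 5 held 1 gene, 4 held 2 genes, and 10 held 3 or more, with a maximum of 5. Klra1 and Klra7 were seen together in 1 of these 20 cells. Among T cell-like cells, 78 of 81 in the responder library held no UMI of the 10 genes, against 39 of 41 in the non-responder library. The responder NK cell-like cells had 7330, 4420 and 3510 UMIs in all, and the non-responder cells 3217 to 20895, so missing genes in shallow cells cannot be told apart from genes that were off.

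**Figure D2:**
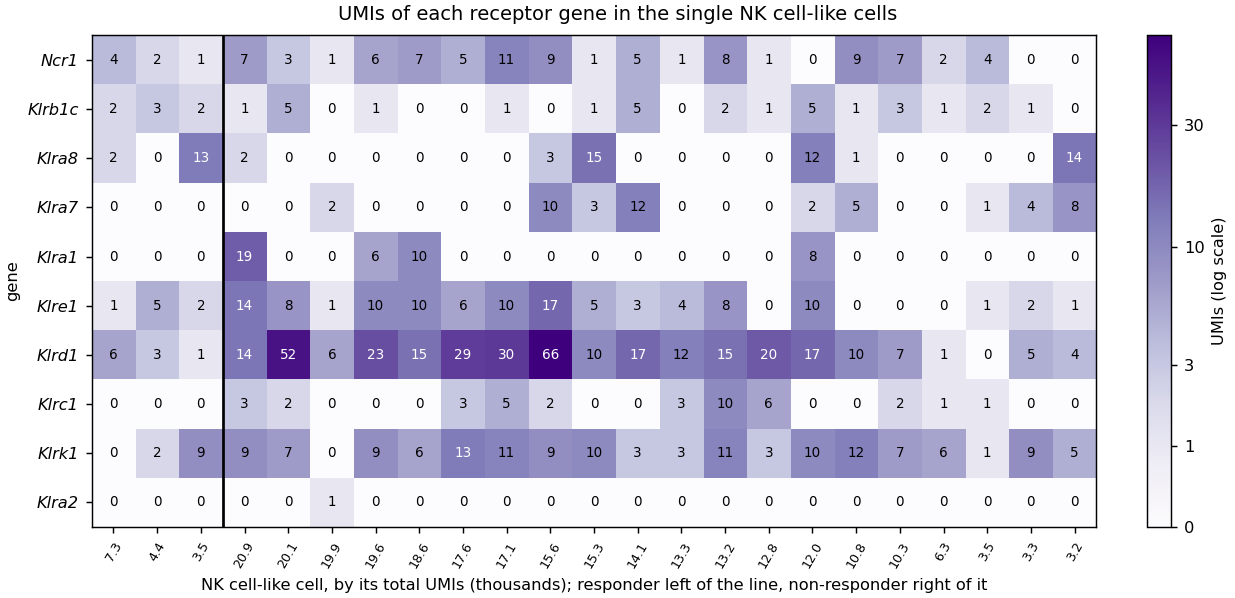
UMIs of each receptor gene (rows) in every NK cell-like cell (columns, labelled by total UMIs), with the 3 responder cells left of the line and the 20 non-responder cells right of it. Colour follows a log scale. Ncr1, Klrb1c, Klre1, Klrd1 and Klrk1 are spread over most cells, and Klra8, Klra7 and Klra1 are concentrated in a few.

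Transcript ends of some of these genes are alike, and the kit reads the 3' end. Of the 50-base windows in the last 500 bases of the transcripts, Klra7 shared 27.5% with the pseudogene Klra13-ps. Klra8 shared 13.1% with Klra3, Klra9, Klra10 and pseudogenes, and Klra1 shared 5.76% with Klra4. Klrc1 shared 56.3% with Klrc2, which encodes the activating counterpart of its product. The counts of these genes are therefore uncertain where the authors' counting could split or drop shared reads. Ncr1, Klrb1c, Klre1, Klra2, Klrk1 and Klrd1 shared none. Klrb1c overlapped another annotated gene, Gm44511, on the same strand.

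Klrd1 encodes CD94, the common subunit of the CD94/NKG2 receptors, and Klrc1 encodes NKG2A, which pairs with CD94 into an inhibitory receptor for the MHC class Ib protein Qa-1. Klrd1 reached 2046 CPM (1899 to 2202, 719 UMIs in 76 of 81 cells) in responder and 541 CPM (451 to 643, 128 UMIs in 21 of 41 cells) in non-responder T cell-like cells. In NK cell-like cells it reached 655 CPM (314.2 to 1205, 10 UMIs) in the responder library and 1319 CPM (1185 to 1464, 353 UMIs in 19 of 20 cells) in the non-responder library. The class with the higher Klrd1 level was thus the T cell-like one in the responder library and the NK cell-like one in the non-responder library. The log2 ratio, responder over non-responder, was 1.92 (1.65 to 2.20) in T cell-like and -1.01 (-2.08 to -0.11) in NK cell-like cells. In macrophage-like cells Klrd1 stood at 3.03 CPM in the responder and 1.46 CPM in the non-responder library.

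Klrc1 stood at 490 CPM (419 to 568, in 69 of 81 cells) in responder and 249 CPM (190 to 322, in 21 of 41 cells) in non-responder T cell-like cells, a log2 ratio of 0.97 (0.54 to 1.42). In NK cell-like cells no UMI was seen in the responder library, and 142 CPM (100 to 195, in 11 of 20 cells) in the non-responder library. No dendritic-like cell of either library held a Klrc1 UMI. RNA of both subunits was seen in 66 of 81 responder T cell-like cells, against 20 of 41 non-responder ones. It was seen in none of the 3 responder NK cell-like cells, against 10 of 20 non-responder ones. The Klrc1 level was highest in T cell-like cells in both libraries, and in the non-responder library its interval there overlapped that of the NK cell-like cells.

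Klre1 encodes a lectin-like receptor that, in the mouse, pairs with the products of Klri1 or Klri2. It reached 524 CPM (226 to 1033, 8 UMIs) in responder and 411 CPM (338 to 495, 110 UMIs in 16 of 20 cells) in non-responder NK cell-like cells. In T cell-like cells it reached 285 CPM (232 to 346, 100 UMIs) in the responder library and 148 CPM (103 to 206, 35 UMIs) in the non-responder library, a log2 ratio of 0.94 (0.38 to 1.54). The NK cell-like level was the higher one in both libraries, but the responder intervals overlap. By share of all its UMIs, 44.6% of Klre1 lay in T cell-like and 3.57% in NK cell-like cells in the responder library. In the non-responder library 17.1% lay in T cell-like and 53.7% in NK cell-like cells.

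Klrk1 encodes NKG2D, an activating receptor for stress-induced ligands that signals through the adaptors DAP10 and DAP12. It reached 721 CPM (360 to 1290) in responder and 538 CPM (454 to 633, in 19 of 20 cells) in non-responder NK cell-like cells. In T cell-like cells it reached 686 CPM (602 to 778, in 59 of 81 cells) in the responder library and 296 CPM (231 to 374, in 20 of 41 cells) in the non-responder library, a log2 ratio of 1.21 (0.82 to 1.62). In the responder library the levels of these classes did not differ beyond their intervals.

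Of the 10 receptor genes, 4 (Klrd1, Klrk1, Klrc1 and Klre1) had 20 or more UMIs in T cell-like cells, and 2 of them, Klrd1 and Klrk1, were at least 2-fold higher in the responder library. Among all 3043 genes measured in these cells, 9.96% were at least 2-fold higher in the responder library and 4.8% at least 2-fold lower, with a median log2 ratio of 0.06. The T cell-like class was made of different clusters in the libraries. Cluster L3, led by Ifng, Cxcr6, Gzmk and Lag3, held 57 of the 81 responder cells, against 2 of the 41 non-responder cells. Cluster L5, led by Penk and Foxp3, the master regulator of regulatory T cells, held 2 responder and 18 non-responder cells. Cluster L2, led by Xcl1, Cd8b1 and Cd8a, held 22 responder and 21 non-responder cells and was the T cell cluster that both libraries filled.

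Over both libraries, Klrd1 stood at 2354 CPM in cluster L3, 1065 CPM in cluster L2 and 0 CPM in cluster L5. Klrk1 stood at 701, 551 and 10.8 CPM in the same clusters, Klrc1 at 528, 397 and 21.5 CPM, and Klre1 at 254, 292 and 0 CPM. The Foxp3 cluster thus had little or none of these receptors. Within cluster L2, Klrd1 stood at 1303 CPM in the responder and 893 CPM in the non-responder library, a log2 ratio of 0.55 (0.19 to 0.91). Klrk1 stood there at 647 and 481 CPM (0.43, -0.08 to 0.93), and Klre1 at 357 and 244 CPM (0.55, -0.16 to 1.26). Klrc1 stood there at 386 CPM in the responder and 405 CPM in the non-responder library, a log2 ratio of -0.07 (-0.69 to 0.54). Within this cluster the interval of Klrd1 alone stayed above 0. Macrophage RNA moved with the T cell-like class too, with 16 of 16 macrophage markers (3663 CPM summed) in responder and 15 of 16 (1569 CPM) in non-responder T cell-like cells, Mrc1 being at 0 in the non-responder ones. Its part in the Klrk1 ratio of T cell-like cells was not tested. The ratios of the whole class move with its makeup of clusters, and the part of that makeup in them was not tested beyond these values.

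**Figure D3:**
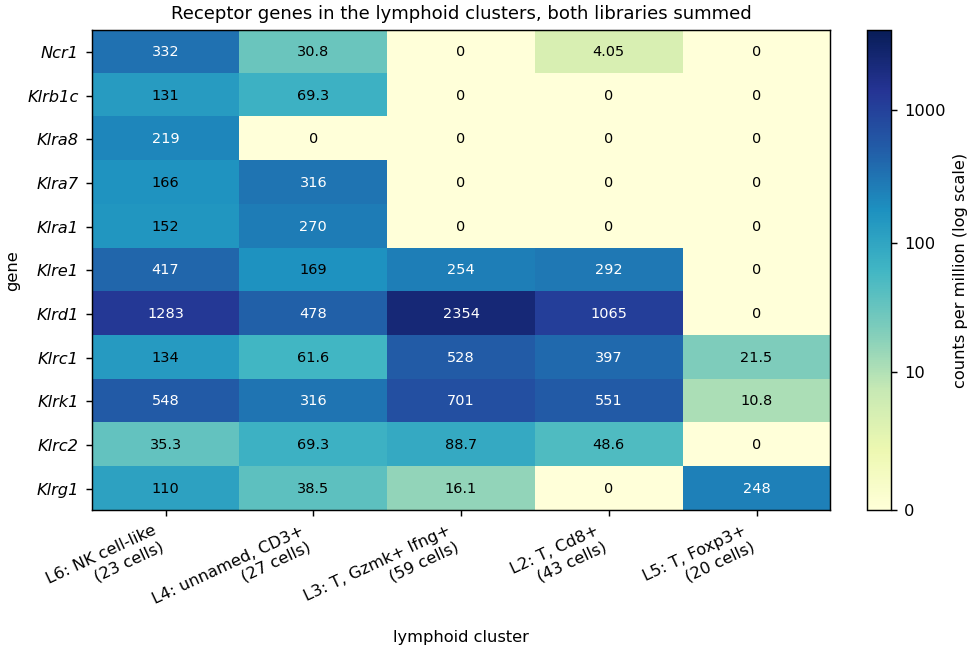
Level in CPM of the receptor genes without Klra2, and of Klrc2 and Klrg1 beside them (rows), in 5 lymphoid clusters with the cells of both libraries summed (columns). Colour follows a log scale. Klrd1, Klrc1, Klre1 and Klrk1 are at or near 0 in the Foxp3 cluster L5, where Klrg1 stands at 248 CPM, and Klra7 and Klra1 are seen in clusters L6 and L4 only.

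In dendritic-like cells, which lack CD3 RNA (0 UMIs in the responder library, 1 UMI in the non-responder library), Klrd1 and Klrk1 were both present. Klrd1 stood at 356 CPM (242 to 506, in 6 of 11 cells) in the responder and 339 CPM (299 to 384, in 57 of 76 cells) in the non-responder library, a log2 ratio of 0.07 (-0.52 to 0.61). Klrk1 stood at 287 CPM (186 to 424, in 8 of 11 cells) in the responder and 191 CPM (161 to 226, in 45 of 76 cells) in the non-responder library, a log2 ratio of 0.59 (-0.09 to 1.21). The partner gene Klrc1 was at 0 in these cells, and Klre1 stood at 11.5 CPM in the responder and 12.2 CPM in the non-responder library. Macrophage-like cells of the same libraries had Klrd1 in 2.98% of cells (responder) and 1.63% (non-responder), at median depths of 10125 and 12207.5 UMIs, against 6811 and 9081 UMIs in the dendritic-like cells. The dendritic-like class counted 13 of 16 macrophage markers and 4 dendritic ones. The macrophage genes C1qa, C1qb and C1qc summed there to 1138 CPM (responder) and 2830 CPM (non-responder), against 25193 and 21244 CPM in macrophage-like cells. The part of macrophage RNA in the Klrk1 and Klrd1 levels of dendritic-like cells was not tested.

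Klrk1 was also found in macrophage-like cells, and there the libraries differed. It stood at 79.9 CPM (77.2 to 82.6, 3401 UMIs) in responder and 9.16 CPM (8.07 to 10.4, 251 UMIs) in non-responder macrophage-like cells, an 8.72-fold ratio (log2 3.12, 2.94 to 3.31). A Klrk1 UMI was seen in 1919 of 4062 responder cells (47.2%) and 169 of 2144 non-responder cells (7.88%). After each cell was thinned to 2000 UMIs, the shares were 14.3% (13.2% to 15.4%) in the responder and 2.15% (1.57% to 2.85%) in the non-responder library, although the non-responder cells were the deeper ones before thinning. The CD3 genes stood at 5.54 CPM in responder and 2.67 CPM in non-responder macrophage-like cells. The 11 T cell markers in the files summed to 10.9 CPM in responder and 7.96 CPM in non-responder macrophage-like cells, and the 15 NK markers to 16.5 and 7.38 CPM. In macrophage-like cells with no CD3 UMI, Klrk1 stood at 80.5 CPM in the responder and 8.999 CPM in the non-responder library. Klrd1, which T cell-like cells hold along with Klrk1, stood at 3.03 CPM in responder and 1.46 CPM in non-responder macrophage-like cells. The counts of Klrk1 and Klrd1 were 241 and 719 UMIs in responder T cell-like cells and 70 and 128 UMIs in non-responder ones. In macrophage-like cells they were 3401 and 129 UMIs in the responder and 251 and 40 UMIs in the non-responder library. The part of T cell RNA in the macrophage level of Klrk1 was not tested beyond these values. Macrophage-like cells held 86.2% of all Klrk1 UMIs of the responder library and 33.9% of those of the non-responder library.

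The macrophage clusters differed in Klrk1 within each library. In the responder library it was highest in cluster 6, led by the monocyte genes Ly6i, Ly6c2 and Plac8, with 142 CPM (131 to 153), and in cluster 8, led by the interferon-induced genes Ifit3 and Oasl1, with 127 CPM (117 to 138). The intervals of these clusters overlap. It stood between 44.8 and 78.1 CPM in clusters 0, 3, 4, 5, 7 and 10, and at 23.4 CPM in cluster 14, led by Adm and Mmp12. The few non-responder cells of clusters 6 and 8 had Klrk1 at 132 CPM (75.7 to 215, in 10 of 17 cells) and 102 CPM (55.5 to 170, in 8 of 11 cells), the highest levels of that library. It stood at 72.2 CPM (49.1 to 102, in 11 of 27 cells) in non-responder cells of cluster 0, whose leading genes H2afx and Mxd3 belong to dividing cells. It stood at 38.3 CPM (72 UMIs, in 45 of 152 cells) in cluster 2, led by the interferon-induced genes Ifit3b and Cmpk2. It stood at 4.63 CPM in cluster 13, led by Gpr34 and Fcrls, which held 968 of the 2144 cells, and at 3.53 and 5.46 CPM in clusters 1 and 14. Clusters 6 and 8 were thus the highest in both libraries, with intervals of the libraries that overlap.

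Clusters 0, 4, 5 and 14 held 20 or more cells of each library. The log2 ratio of Klrk1, responder over non-responder, was 0.01 (-0.51 to 0.58) in cluster 0, 1.52 (0.28 to 3.16) in cluster 5 and 2.10 (0.37 to 3.48) in cluster 14. In cluster 4 Klrk1 stood at 57.1 CPM in the responder library and none of the 22 non-responder cells held a UMI. Set against a limit of 3 counts in the non-responder cells of that cluster, the responder level was 4.78-fold higher. The exact Poisson interval of that count of 0 reaches 14.7 CPM. Clusters 6 and 8 had under 20 non-responder cells and levels of 142 and 127 CPM in the responder library, against 132 and 102 CPM in the non-responder library. Clusters 3 and 7 stood at 78.1 and 75.2 CPM in the responder library, against 30.1 CPM (2 UMIs) and 26.5 CPM (3 UMIs) in the non-responder library. The within-cluster differences thus ranged from near 0 to several-fold, and most cells of the class lay in clusters that 1 library filled. What part of the class ratio comes from which clusters each library holds was not tested beyond these values.

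Klra2 encodes Ly49B, an inhibitory Ly49 receptor, and was the receptor gene of the macrophages. It stood at 236 CPM (231 to 241, 10045 UMIs) in responder and 123 CPM (119 to 127, 3375 UMIs) in non-responder macrophage-like cells, a 1.91-fold ratio (log2 0.94, 0.88 to 0.99). A Klra2 UMI was seen in 83.5% of the responder macrophage-like cells, against 67.9% of the non-responder ones. After thinning to 2000 UMIs these shares were 36.6% (responder) and 20.9% (non-responder). T cell-like cells held 3 Klra2 UMIs in the responder library and none in the non-responder library, and after thinning their shares with a UMI were 1.23% (responder) and 0% (non-responder). NK cell-like cells held none in the responder library and 1 in the non-responder library. Both lymphocyte classes of both libraries thus held at most 3 Klra2 UMIs each. The macrophage-like class was not counted as leading it in the responder library. The exact Poisson interval of the 3 NK cell-like cells, which held no UMI, reaches 242 CPM and overlaps that of the macrophage-like class. Dendritic-like cells held no Klra2 UMI in the responder library and 14.9 CPM (7.45 to 26.7) in the non-responder library. Macrophage-like cells held 96.7% of all Klra2 UMIs of the responder library and 90.5% of those of the non-responder library, and the unnamed cluster 12, led by S100a8 and Cxcl3, held 298 of the others in the non-responder library.

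**Figure D4:**
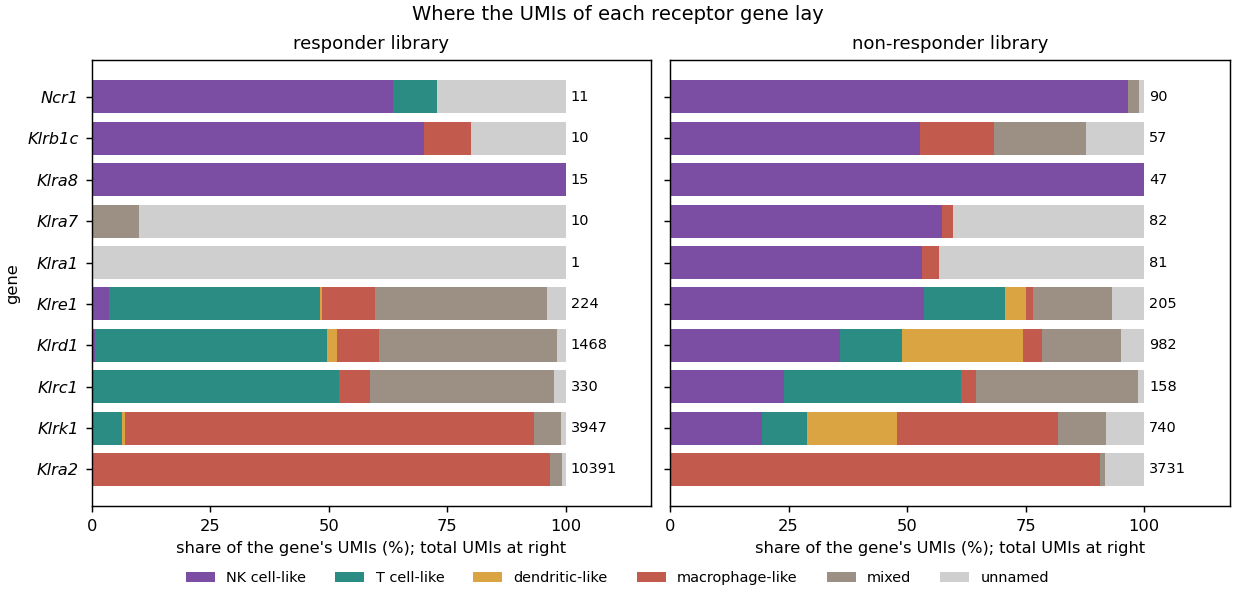
Share in percent of each receptor gene's UMIs (bars, with the total UMIs at right) by cell class, with the responder library on the left and the non-responder library on the right. Klra8 lies in NK cell-like cells alone in both libraries, Klra2 mostly in macrophage-like cells, and Klrk1 mostly in macrophage-like cells of the responder library but over several classes of the non-responder library.

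Klra2 was found in every macrophage cluster with 20 or more cells. In the responder library it was between 131 CPM (cluster 14) and 285 CPM (274 to 296, cluster 7, led by the chemokine gene Ccl8). In the non-responder library it was between 79.0 CPM (71.6 to 86.9, cluster 14) and 231 CPM (cluster 4, 22 cells). Cluster 14 had the lowest level of these clusters in both libraries. Its responder interval (87.0 to 189, 28 UMIs in 26 cells) overlaps those of clusters 0 and 5, and its non-responder interval overlaps that of cluster 5. In the clusters that both libraries filled, the log2 ratio of Klra2, responder over non-responder, was 0.06 (-0.32 to 0.46) in cluster 4, 0.49 (0.10 to 0.90) in cluster 0, 0.64 (0.17 to 1.15) in cluster 5 and 0.73 (0.12 to 1.28) in cluster 14. All 4 were below the class ratio of 0.94. In cluster 6, with 17 non-responder cells, Klra2 stood at 246 CPM (232 to 261) in the responder and 348 CPM (250 to 470) in the non-responder library. In clusters 3, 7, 8 and 10, which also had under 20 non-responder cells, the responder level was the higher one. The intervals of the libraries overlap in clusters 7, 8 and 10, and cluster 10 held 1 non-responder cell. Clusters 1, 2 and 13 had under 20 responder cells. Klra2 stood there at 61.0, 178 and 187 CPM in the responder library, against 105, 184 and 138 CPM in the non-responder library. The intervals of the libraries overlap in these clusters too. Over 20 clusters of 30 or more cells, both libraries summed, the genes whose log2(CPM + 1) levels were most alike to those of Klra2 were Rab7b, Hk3, Aoah, Tmem51 and Lacc1, with Pearson correlations between 0.976 and 0.981. These clusters are mostly macrophage clusters set against lymphoid ones, and no p is given. The same measure for Ncr1 rested on 3 UMIs, since the NK cell-like cluster has under 30 cells, and is not read.

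**Figure D5:**
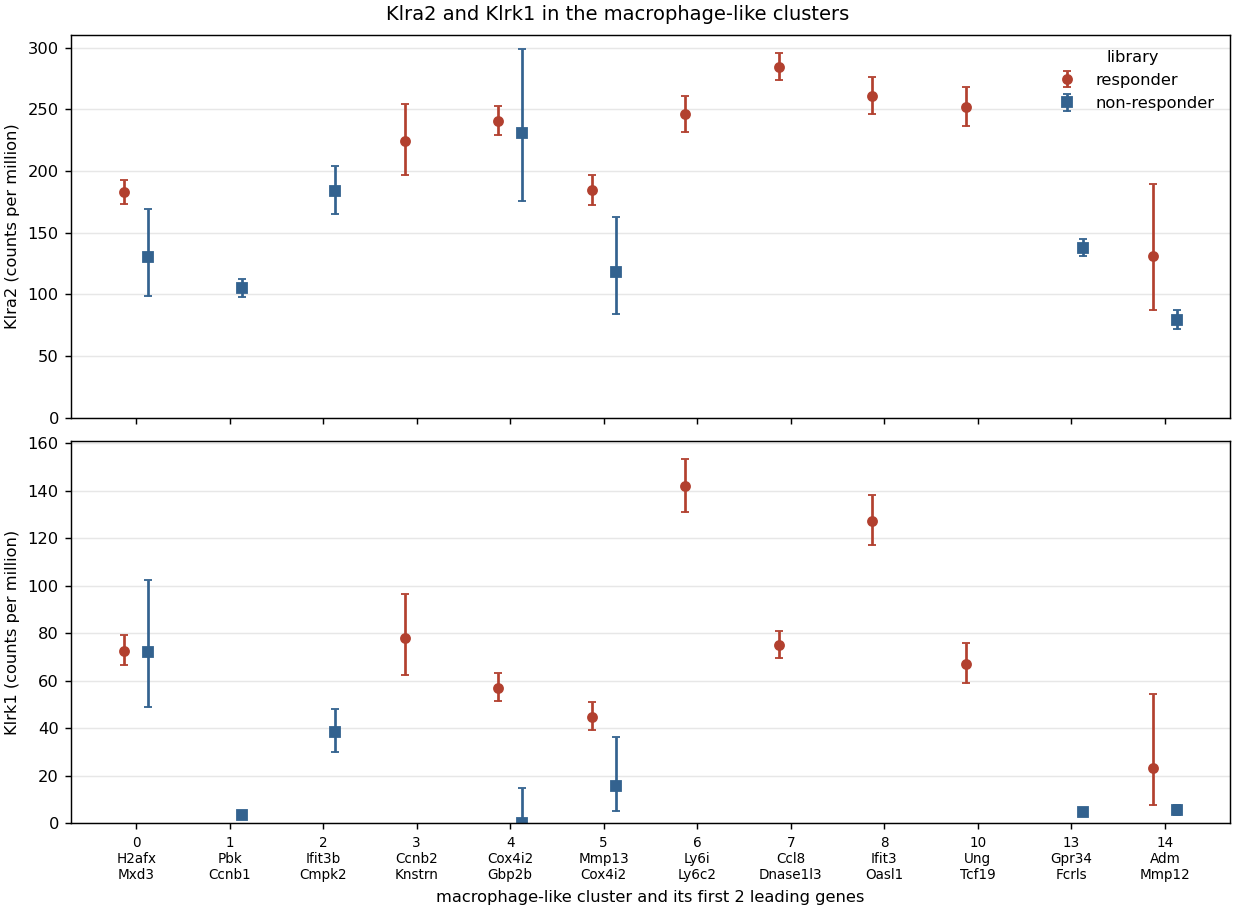
Level in CPM of Klra2 (top) and Klrk1 (bottom) in each macrophage-like cluster with 20 or more cells of the library, named by number and its first 2 leading genes. Circles are the responder and squares the non-responder library, with 95% Poisson intervals. Klra2 is above 75 CPM in every cluster, and Klrk1 is near 5 CPM or below in non-responder clusters 1, 13 and 14 and at 0 in non-responder cluster 4 (22 cells).

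Of the 10 receptor genes, 5 had 20 or more UMIs in macrophage-like cells (Klra2, Klrk1, Klrd1, Klrc1 and Klre1), and 4 of them, all but Klra2, were at least 2-fold higher in the responder library. Among all 11774 genes measured in these cells 4.42% were at least 2-fold higher and 5.53% at least 2-fold lower, with a median log2 ratio of -0.10. Klrd1 (log2 1.05, 0.53 to 1.60), Klrc1 (1.501, 0.07 to 3.26) and Klre1 (2.42, 0.71 to 4.79) were at or below about 3 CPM in both libraries. The CD3 genes beside them stood at 5.54 CPM in the responder and 2.67 CPM in the non-responder library. The part of T cell RNA in those 3 ratios was not tested.

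Of the 17 other Klr and Ncr genes, 14 had 10 or more UMIs over the libraries together, and Klra10, Klrb1 and Klrc3 had fewer. Klrb1b, an inhibitory Nkrp1 receptor, stood at 62.8 CPM in responder and 22.0 CPM in non-responder macrophage-like cells, and at 276 and 126 CPM in dendritic-like cells. In NK cell-like cells it had no UMI in the responder library and 235 CPM in the non-responder library. Klra17, which encodes Ly49Q, a Ly49 receptor of myeloid and plasmacytoid cells, stood at 12.9 CPM in responder and 3.36 CPM in non-responder macrophage-like cells. Klrb1b stood at 66.7 CPM in responder and 175 CPM in non-responder cells of macrophage cluster 0, so the direction of the class ratio did not hold within that cluster.

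Klra4 (Ly49D, an activating receptor) stood at 262 CPM (4 UMIs) in responder and 209 CPM (56 UMIs) in non-responder NK cell-like cells, Klra3 (Ly49C) at 393 and 41.1 CPM, and Klra9 (Ly49I) at 197 and 85.9 CPM. Klra5 had no UMI in responder and 187 CPM in non-responder NK cell-like cells, and 13 of the 17 Klra6 UMIs of the non-responder library lay in unnamed clusters. Klri2, which encodes a partner of the Klre1 product, stood at 197 CPM (3 UMIs) in responder and 138 CPM in non-responder NK cell-like cells, and at 48.4 and 42.3 CPM in T cell-like cells. Klrc2 stood at 85.4 CPM in responder and 16.9 CPM in non-responder T cell-like cells. Klrg1, an inhibitory receptor for cadherins, stood at 17.1 CPM in responder and 88.8 CPM in non-responder T cell-like cells, with most of it in the Foxp3 cluster. Klrb1a stood at 197 CPM (3 UMIs) in responder and 44.8 CPM in non-responder NK cell-like cells, and Klrb1f had no UMI in the responder ones and 59.8 CPM in the non-responder ones. Klri1 and Klrg2 had at most 17 UMIs in a library.

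The genes that work with these receptors were taken from 6 lists, with examples from the most counted genes of each, and Hcst in macrophages, H2-T23, Raet1d and Clec2d were named after their values were seen. Of 16 adaptors and signalling genes, 14 were measured in macrophage-like cells, of which 1 was at least 2-fold higher in the responder library and none lower (median log2 0.36). The shares over all genes measured in these cells are again 4.42% higher and 5.53% lower. In T cell-like cells 11 were measured, of which 3 were higher and none lower (0.89), beside 9.96% of all genes higher and 4.8% lower. Fcer1g, which carries the signal of NKp46, stood at 2818 CPM in responder and 3426 CPM in non-responder NK cell-like cells. Tyrobp (DAP12) stood there at 1442 and 2160 CPM, and Hcst (DAP10) at 328 and 295 CPM. In macrophage-like cells Tyrobp stood at 3461 CPM in the responder and 2978 CPM in the non-responder library, and Hcst at 64.4 and 58.9 CPM. Thus the adaptors of NKG2D were present in the macrophages of both libraries, and neither was 2-fold higher in the responder library as Klrk1 was.

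Of 18 ligand genes, 11 were measured in macrophage-like cells, of which 3 were at least 2-fold higher in the responder library and none lower (median log2 0.53), beside 4.42% and 5.53% of all genes. In T cell-like cells 5 were measured, and none was 2-fold higher or lower (0.20), beside 9.96% of all genes higher and 4.8% lower. H2-T23, which encodes the Qa-1 ligand of CD94/NKG2A, stood at 293 CPM in responder and 141 CPM in non-responder macrophage-like cells (log2 1.05). The class I genes B2m, H2-D1 and H2-K1, whose products are recognised by Ly49 receptors, stood at 12370, 4449 and 2258 CPM in the responder and 9410, 3071 and 1273 CPM in the non-responder library. Raet1d, a ligand gene of NKG2D, stood at 6.46 CPM in responder and 11.7 CPM in non-responder macrophage-like cells (log2 -0.86), opposite in direction to its receptor gene Klrk1. Clec2d, a ligand gene of the Nkrp1 receptors, stood at 24.8 CPM in responder and 15.3 CPM in non-responder cells (0.70).

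Of 12 other NK receptor genes, 6 were measured in macrophage-like cells, with 1 at least 2-fold higher and none lower (median log2 0.49), and 7 in T cell-like cells, with 3 higher and none lower (0.61). The shares over all genes are again 4.42% higher and 5.53% lower in macrophage-like cells, and 9.96% and 4.8% in T cell-like cells. In T cell-like cells Il2rb, a chain of the interleukin-15 receptor, stood at 783 CPM in the responder and 512 CPM in the non-responder library, and Cd160 at 208 and 33.8 CPM. Of 12 NK effector genes, 11 were measured in T cell-like cells, of which 8 were at least 2-fold higher in the responder library and 1 lower (median log2 2.40), beside 9.96% and 4.8% of all genes. In macrophage-like cells 10 were measured, of which 4 were higher and 2 lower (0.54), beside 4.42% and 5.53% of all genes. In T cell-like cells Ccl5 stood at 11037 CPM in the responder and 2089 CPM in the non-responder library, Nkg7 at 8299 and 3154 CPM, and Ccl4 at 4924 and 537 CPM. In NK cell-like cells Gzmb, a granzyme of killing granules, stood at 2556 CPM in the responder and 3385 CPM in the non-responder library. Gzmc stood there at 2031 CPM in the responder and 30374 CPM in the non-responder library. Of 8 transcription factor genes of NK cells, 3 of 5 measured were at least 2-fold higher in responder T cell-like cells (median log2 1.01) and 1 of 4 in macrophage-like cells (0.07). Among all genes, 9.96% were higher in T cell-like and 4.42% in macrophage-like cells. Eomes stood at 65.5 CPM (responder) and 63.5 CPM (non-responder) in NK cell-like cells. Gzmb and Eomes are among the 15 NK markers used to name this class, so their presence in it is not a separate result. Of 8 tissue residency genes, 5 were measured in T cell-like cells, of which 1 was higher and none lower (-0.13), and 5 in macrophage-like cells, of which 2 were higher and none lower (0.18). The same shares over all genes stand beside these counts. The T cell-like class was made of different clusters in the libraries, and the part of that makeup in the T cell-like counts of these lists was not tested.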

How the data were processed

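Per the labels' protocols, the Chromium 3' v3 kit of 10x Genomics was used to capture CD45+ cells. The authors deposited 1 filtered matrix of UMI counts (whole numbers) per library. Cell Ranger 1.1.0 and the builds mm10 and GRCm38 are named by the submitters' processing notes. The cell calling, the annotation release and the treatment of reads that match several genes are not given in the sources used here. Both libraries named the same 27998 genes, and all 10 receptor genes were found by symbol.

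Of 7005 barcodes, 4 with under 500 genes and 61 with more than 10% of their UMIs from mitochondria were not used. Counts were scaled to 10000 per cell and logged, and 2000 variable genes, with no Klr or Ncr gene among them, gave 30 principal components. Cells were clustered on 15 neighbours by the Leiden method at resolution 1 in scanpy 1.11.5, without batch correction, and lymphoid clusters (L numbers) were clustered again. A marker counted at 50 CPM with a UMI in 10% of the cells. A cluster needed 50% of the T cell or NK markers, or 75% of the macrophage markers, for its name. Clusters that met the T cell and the macrophage limit were called mixed. Clusters 12 and L4 stayed unnamed because their 10 leading genes, taken against cells outside their class, held more markers of another class. This check was applied once. Repeated after 12 and L4 were set apart, it was not passed by cluster 4. With leading genes taken against all other cells, clusters 4, 7, L2 and L3 did not pass. These 4 clusters kept their names. No doublet caller was used.

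Counts were summed per class and library and given as CPM with exact Poisson intervals, shares with exact Clopper-Pearson intervals, and ratios with conditional exact binomial intervals (scipy 1.17.1), all at 95%. Genes needed 20 UMIs over the classes compared to be counted. Where a count of 0 is said to allow a level or share, the limit is a fixed 3 counts. The exact Poisson interval of a count of 0, which was used for the leads, reaches higher. UMIs of 1 cell are not independent samples of a mouse, and intervals cover counting error only. The scripts were tested on simulated data. The alternatives tried were other resolutions and gene sets, cell filters, TMM scaling (edgeR 4.0.16), thinning and other class rules.

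The receptor genes, lists and markers were chosen with earlier results of these data known. Named by rule were all 10 receptor genes, other Klr and Ncr genes with 10 or more UMIs, the 3 genes of each list with the most UMIs in a class, and the 5 genes most alike to Klra2. Coordinates are from GENCODE M21 and promoters from RefSeq, both on GRCm38.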

Additional observations from a re-analysis of the deposited data

Results flagged for a closer look

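Klra4, an activating Ly49 gene described above for NK cell-like cells, was also found in the unnamed cluster 16. Its leading genes include Serpinh1, Dcn and Col3a1 of collagen-making cells, and also Tm4sf1 and Rhox5. Only 2 fibroblast markers were counted in this cluster, and its median depth was 29277 UMIs. Which cells make up the cluster was not tested. Klra4 stood there at 186.4 CPM (157 to 219, 144 UMIs in 15 of 22 cells) in the responder library and 185.0 CPM (156 to 217, 148 UMIs in 15 of 20 cells) in the non-responder library. In macrophage-like cells of the same libraries it stood at 0.352 CPM (responder) and 0.402 CPM (non-responder), and in NK cell-like cells at 262 and 209 CPM. Cluster L4 held 16 Klra4 UMIs in 1 of 7 responder cells, and 2 UMIs in 1 of 20 non-responder cells. The other Ly49 genes of the files were at 0 in cluster 16, except Klra2 (9 UMIs in the responder library, 4 UMIs in the non-responder library) and 1 UMI of Klra1 in the non-responder library. The 15 NK markers had 11 responder and 3 non-responder UMIs there, and Ptprc, the gene of CD45 on which the cells were sorted, stood at 9.06 and 3.75 CPM. Klra1 shares part of its transcript end with Klra4, and what part read sharing has in this value was not tested.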

How the results depend on the processing

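Over 32 results and 22 settings, 186 of 238 alternative values stayed close to the reported one, 51 moved and 1 changed direction. Close meant within the interval of the reported value, or within a fixed fold of it for results without an interval, such as counts of genes. At resolution 0.5 the macrophage-like share of Klra2 UMIs was 75.4% in the responder library, that of Klrk1 66.5% (responder) and 28.6% (non-responder), and the macrophage log2 ratios were 1.01 (Klra2) and 3.43 (Klrk1). The responder shares of Klra2 and Klrk1 were 93.9% and 83.8% with 1000 variable genes, 92.5% and 83.1% with each library clustered on its own, and 94.4% and 84.1% without a filter on cells. The non-responder Klra2 share was 91.6% in each of the last 2 of these settings. With each library on its own, no responder cluster was NK cell-like (0% of cells). With at least 1000 genes per cell the Klra2 shares were 97.3% (responder) and 98.4% (non-responder). The responder share of Ncr1 UMIs in NK cell-like cells was 90.9% in that setting and with Klr and Ncr genes kept in the clustering, and 45.5% at resolutions 0.5 and 2 and without a filter on cells. TMM scaling, which moved all macrophage ratios by 0.0987, gave a Klra2 log2 ratio of 1.04. Thinning to 2000 UMIs gave log2 ratios of 2.80 for Klrk1 in macrophage-like cells, and 2.25 for Klrd1 and 1.55 for Klre1 in T cell-like cells. Equal weights for the macrophage clusters that both libraries filled gave 0.48 for Klra2 and 1.47 for Klrk1. T cell-like cells without a C1q UMI were 1 responder and 5 non-responder cells, with a Klrd1 log2 ratio of 1.42. The NK cell-like class led 6 of the 10 receptor genes of the non-responder library at resolution 0.5, and 7 with 1000 variable genes or with at least 1000 genes per cell. By the highest CPM alone, the NK cell-like class had 5 of the 10 receptor genes in the responder library. The shares of macrophage-like cells with a UMI were, for the responder and the non-responder library, 20.8% and 11.4% (Klra2) and 7.68% and 0.840% (Klrk1) at 1000 UMIs, and 50.2% and 27.8% (Klra2) at 3000 UMIs, where the responder Klrk1 share was 20.95%.

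The next alternatives were chosen after seeing the data. With clusters 12 and L4 counted in the class their markers first gave, the Klra2 shares were 97.1% (responder) and 98.4% (non-responder), the non-responder Klrk1 share 38.5%, the NK-led genes 6 of 10 (non-responder) and the T cell-like Klrc1 log2 ratio 1.43. In cluster L2 alone the T cell-like log2 ratios were 0.55 (Klrd1), 0.43 (Klrk1) and -0.067 (Klrc1, whose direction changed), and without cluster L5 they were 1.29 (Klrd1), 0.60 (Klrk1), 0.36 (Klrc1) and 0.31 (Klre1). In both settings fewer cells enter. Without cluster 4, whose leading genes hold a marker of another class, the macrophage log2 ratios were 0.94 (Klra2) and 3.19 (Klrk1). For the other moved values the cause was not tested.

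The 3 responder NK cell-like cells, with 15260 UMIs in all, limit every NK value of that library. No paired analysis was possible because each group has 1 library.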

Other observations

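Klrb1b, the inhibitory Nkrp1 receptor gene, had a class ratio in macrophage-like cells that was not seen in each of the 4 clusters with 20 or more cells of both libraries. Over the class its log2 ratio, responder over non-responder, was 1.51 (1.39 to 1.64). Within cluster 0 it stood at 66.7 CPM (60.9 to 73.0) in the responder and 175 CPM (137 to 219) in the non-responder library. Within cluster 4 it stood at 66.5 CPM (60.6 to 73.0) in responder and 99.6 CPM (64.5 to 147) in non-responder cells, and within cluster 5 at 28.8 CPM (24.3 to 33.8) and 43.7 CPM (23.9 to 73.3). Within cluster 14 it stood at 23.4 CPM (7.59 to 54.5) in responder and 15.0 CPM (11.9 to 18.7) in non-responder cells. The intervals of the libraries overlap in clusters 4, 5 and 14. Klra17, whose class ratio was 1.95 (1.63 to 2.28), stood at 2.35 CPM in responder and 21.8 CPM in non-responder cells of cluster 5. Among 16 combinations of macrophage cluster and library, the genes whose level was most alike to that of Klrk1 were Dopey2, Azi2, Tmem128, Itga4 and Napsa, with Pearson correlations between 0.866 and 0.903. This last comparison was chosen after its values were seen, and the points share libraries.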
